A study of Homo sapiens with 6 samples.

Results

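Messenger RNAs of 9 complement genes were measured in A549 cells: the components C3, C5, C1R, C1S and CFB and the regulators SERPING1, CD46, CD55 and CD59. All levels below are of RNA, also where a gene is introduced by what its protein does. The 9 genes were chosen by name, with earlier results of these data known, and all were found among the 54261 genes of the count table. A549 is an established human lung adenocarcinoma cell line. The cells were grown in medium with fetal bovine serum and received either an siRNA against SNHG17, a long noncoding RNA that also hosts small nucleolar RNAs (si-SNHG17, 3 libraries), or a control siRNA (si-NC, 3 libraries). Every library thus came from the same line, and the sources used here do not give the number of siRNA sequences, the dose or the time. Nothing says that the replicates were grown as separate cultures. The p-values therefore rest on a spread between libraries that may be technical.

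Complement is a set of blood and tissue proteins that tag and lyse cells. The classical pathway uses the proteases C1r and C1s of the C1 complex, and the alternative pathway amplifies deposited C3 with factor B (CFB). Both lead to cleavage of C3 and then of C5, which begins the membrane attack complex. Host cells are protected by the C1 inhibitor SERPING1 in the fluid phase and by CD46, CD55 and CD59 on the surface. CD46 is a cofactor for cleavage of C3b and C4b, CD55 speeds the decay of the convertases, and CD59 blocks the last step of the attack complex. The liver makes most circulating complement, and airway epithelial cells make part of their own.

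The sequences upstream of the 9 genes were searched for motifs, because CFB is a textbook target of interferon and inflammatory signals. RefSeq start sites of GRCh38.p14 gave 12 windows of 250 bases before a start for 6 of the 9 genes; C3, C1S and SERPING1 were not matched. Each was searched on both strands for an NF-kB motif (GGG, any 2 bases, then TTTCC), a STAT motif (TTCNNNGAA), an interferon response motif (GAAA, any 2 bases, then GAAA) and a C/EBP motif (TTGCNNAA). These occur in 1.73%, 6.57%, 3.02% and 9.05% of all 35116 such windows. CFB and CD59 are shown because the STAT letters occur in a gene that rose and in a gene that fell. CFB is on the plus strand (chr6:31945845-31946094), and CD59 on the minus strand (chr11:33736480-33736729, the window of its outermost start). Capitals mark motif matches, and each sequence ends at the base before the start.
CFB: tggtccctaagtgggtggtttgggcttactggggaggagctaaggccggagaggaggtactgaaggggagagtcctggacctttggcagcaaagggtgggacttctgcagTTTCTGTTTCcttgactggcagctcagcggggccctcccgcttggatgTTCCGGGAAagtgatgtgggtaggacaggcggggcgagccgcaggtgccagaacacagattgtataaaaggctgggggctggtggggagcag
CD59: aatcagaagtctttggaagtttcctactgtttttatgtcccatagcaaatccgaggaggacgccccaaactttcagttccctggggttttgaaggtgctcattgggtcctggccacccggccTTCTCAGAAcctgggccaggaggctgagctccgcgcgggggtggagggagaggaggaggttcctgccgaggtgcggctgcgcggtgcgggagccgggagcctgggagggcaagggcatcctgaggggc
The CFB window held an interferon response match on its reverse strand (TTTCTGTTTC, from 140 bases before the start) and a STAT match (TTCCGGGAA, from 92 bases before). The CD59 window held a STAT match (TTCTCAGAA, from 128 bases before), which overlapped no other motif; the window of the next start held the same match, and an inner window held 2 C/EBP matches. C1R had a C/EBP match at its outer start, and C/EBP and STAT matches at an inner start. None of the 4 motifs was found in the windows of CD55, CD46 or C5, and the NF-kB letters were in none of the 12 windows. A match is a description of letters and not evidence that a factor binds.

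The libraries held 8643076 to 12477214 counts. SNHG17, the targeted RNA, had a mean of 9.16 ± 1.86 CPM (counts scaled to a library of 1000000, with TMM-scaled library sizes; SD, n = 3) in si-SNHG17 and 42.1 ± 8.16 CPM in si-NC, which was 21.8% of control (log2 fold change -2.21, edgeR adjusted p = 2.84e-07). Epithelial keratins were abundant (KRT8 2530 ± 132 and 4257 ± 461 CPM), while EPCAM was near 1 CPM (0.950 ± 0.491 and 1.53 ± 0.202 CPM) and SFTPB, a surfactant gene of alveolar cells, had no read. Of the 7 epithelial markers tested, KRT8, KRT18 and CDH1 fell (log2 fold changes -0.75, -0.93 and -0.53 by edgeR), and KRT19 (0.43) and KRT7 (0.27) rose. The KRT7 call was lost in 5 of the 6 fits that each left out a library (adjusted p from 0.0600 to 0.152), all but that without si-NC replicate 3. The 8 markers summed to 9730 to 10352 CPM in si-SNHG17 and 12124 to 14190 CPM in si-NC, and their part in the results was not tested. Of 11 immune cell markers, 7 had no read in any library, including PTPRC, the pan-leukocyte gene CD45. The list summed to 489 to 587 CPM in si-SNHG17 and 206 to 289 CPM in si-NC, nearly all from CD68, a lysosomal protein gene (512 ± 48.8 and 197 ± 41.4 CPM), and CD14 fell (19.6 ± 1.55 and 36.1 ± 6.54 CPM). No hepatocyte marker of 8 had enough reads to be tested, and of 9 fibroblast and endothelial markers only COL1A1 was tested (25.3 ± 3.68 and 24.3 ± 3.67 CPM, not past the threshold).

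With SNHG17 lowered, the components C3, CFB, C1R and C1S and the regulator CD55 rose, while C5 and CD59 fell. Of the 9 genes, all of which were tested, 6 rose (C3, CFB, C1R, C1S, CD55 and, from few reads, SERPING1), 2 fell (C5 and CD59), and CD46 did not pass an adjusted p of 0.05 in edgeR's quasi-likelihood test. Over all 15614 genes tested, 39.1% passed in either direction, 19.6% higher and 19.6% lower. The 2 groups of libraries did not overlap for any of the 9 genes, CD46 included, against 49.4% of all genes tested. The median log2 fold change of the 9 genes was 0.56, against 0.01 over all genes. The 9 genes and the lists below were chosen with earlier results of these data known. Comparisons of their shares and medians with all genes are therefore not independent of the data. Together the 9 genes took 0.259% to 0.272% of the counts in si-SNHG17 and 0.154% to 0.160% in si-NC. In bulk RNA, a change in the number of cells that make a transcript and a change in RNA per cell cannot be told apart.

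**Figure D1:**
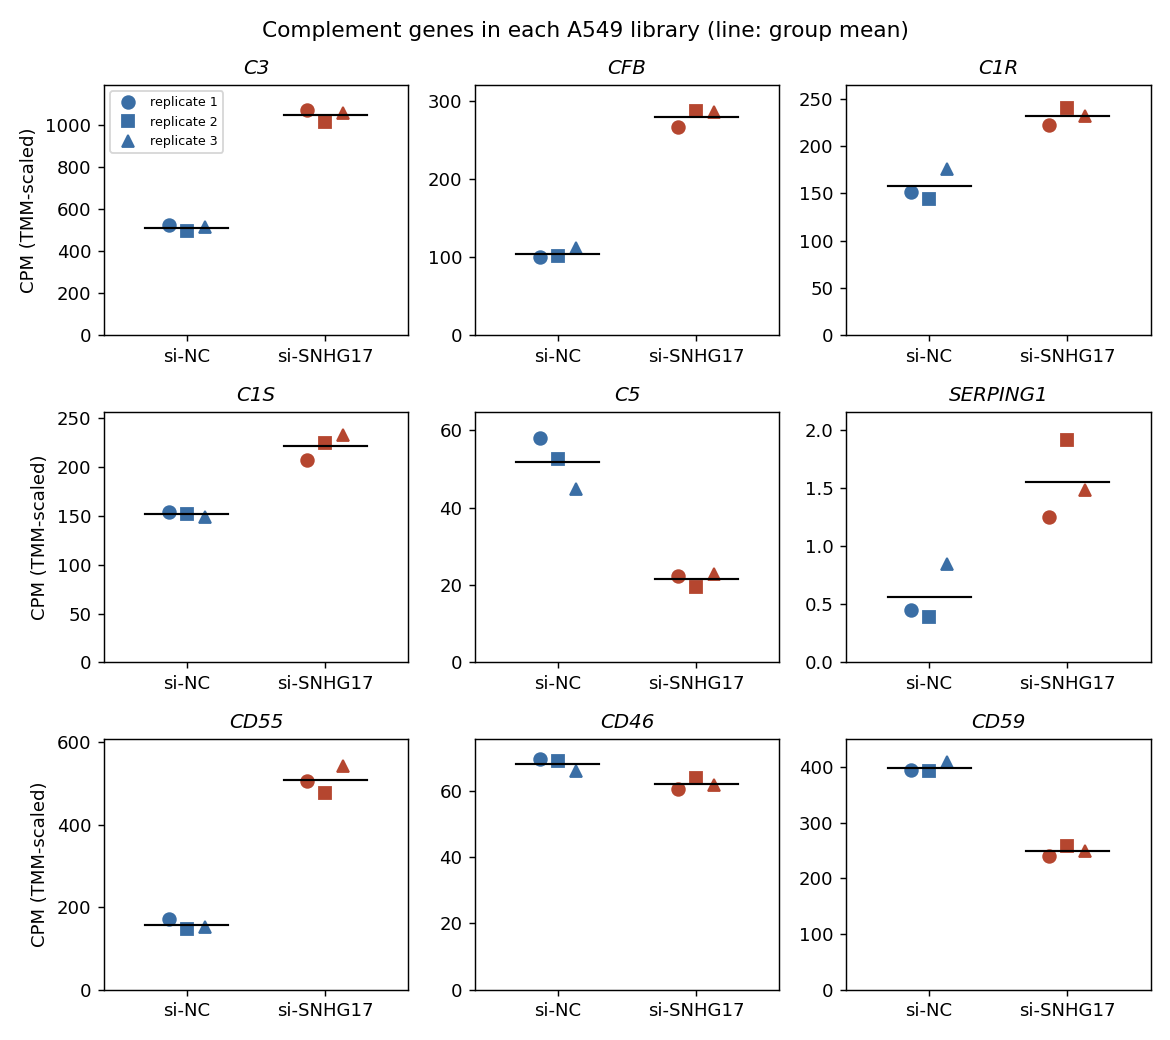
CPM (TMM-scaled library sizes, linear axes from 0) of each complement gene in the 3 si-NC and 3 si-SNHG17 libraries; symbols are replicates and lines are group means. The groups separate in all 9 panels. In CD46 they lie close together (65.9 to 69.6 against 60.6 to 64.0 CPM).

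The mRNA of C3, the protein on which the pathways converge, doubled. It had 10281, 12699 and 9255 counts in si-SNHG17, or 1072, 1015 and 1055 CPM, against 522, 493 and 516 CPM in si-NC. The lowest si-SNHG17 library was thus well above the highest control, and the 3 libraries of each group lay close together. The log2 fold change was 1.04 (SE 0.070, adjusted p = 9.92e-08 by edgeR). C3 lies on chromosome 19 from 6677704 to 6730562, minus strand (GENCODE 29, GRCh38), with 41 exons in its largest coding transcript. It alone held 39.2% to 41.3% of the reads of the 9 genes in si-SNHG17 and 31.8% to 32.2% in si-NC.

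CFB, the serine protease of the alternative pathway convertase, rose more than C3. Its level was 267, 288 and 286 CPM in si-SNHG17 and 100.1, 102 and 113 CPM in si-NC, a 2.67-fold rise (log2 fold change 1.42, SE 0.080, adjusted p = 2.05e-08 by edgeR). All 3 si-SNHG17 libraries exceeded every control by more than the spread within either group. CFB lies on chromosome 6 from 31945650 to 31952084, plus strand, in the MHC class III region, and its exons overlap those of C2 on the same strand. They also overlap a protein-coding gene model on that strand (AL645922.1), which the count table does not list by that name. C2, the classical pathway counterpart of CFB, had 5, 4 and 2 counts in si-SNHG17 and 1 count in each si-NC library, so few of the reads in this stretch were assigned to C2. The sources used here do not say how reads in overlapping exons were assigned.

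The neighbouring genes C1R and C1S, whose products are the proteases of the C1 complex, rose by similar amounts. C1R had 222, 240.0 and 232 CPM in si-SNHG17 against 151, 144 and 176 CPM in si-NC (log2 fold change 0.56, SE 0.086, adjusted p = 0.000176 by edgeR). C1S had 206, 224 and 232 CPM against 153, 152 and 148 CPM (log2 fold change 0.55, SE 0.076, adjusted p = 6.87e-05). The highest C1R control, si-NC replicate 3, came closest to the si-SNHG17 libraries, while the C1S controls were within a few CPM of each other. Both lie on chromosome 12, C1R from 7080199 to 7092607 on the minus strand and C1S from 6988259 to 7071032 on the plus strand, with 9166 bases between them. The exons of C1R overlap those of its paralogue C1RL, and those of C1S overlap EMG1, in each case on the same strand, so reads in the shared stretches are uncertain.

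C5, which is cut to release C5a and to start the attack complex, went the opposite way. It had 214, 245 and 200 counts in si-SNHG17 and 509, 534 and 477 in si-NC, or 22.3, 19.6 and 22.8 CPM against 57.9, 52.7 and 44.7 CPM. The si-SNHG17 mean was 41.7% of control (log2 fold change -1.27, SE 0.120, adjusted p = 2.26e-06 by edgeR). The control libraries spread over a wider range than the si-SNHG17 libraries, yet the lowest control (44.7 CPM) was far above the highest of them (22.8 CPM). C5 lies on chromosome 9 from 120952335 to 121050276, minus strand.

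Among the regulators, CD55 (decay-accelerating factor) had the largest fitted change of the 9 genes. It had 506, 477 and 542 CPM in si-SNHG17 against 171, 147 and 151 CPM in si-NC. That is a 3.25-fold rise (log2 fold change 1.70, SE 0.085, adjusted p = 6.83e-09 by edgeR), the 181st largest rise of the 15614 genes tested. CD55 lies on chromosome 1 from 207321376 to 207386804, plus strand, in the cluster of complement regulator genes.

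CD46 lies on the same strand 365252 bases further along, from 207752057 to 207795513. It had 60.6, 64.0 and 61.9 CPM in si-SNHG17 and 69.6, 68.9 and 65.9 CPM in si-NC. Each si-SNHG17 library was below each control, but the log2 fold change of -0.13 (95% interval -0.31 to 0.05, edgeR adjusted p = 0.239) did not pass. CD46 is the only one of the 9 genes for which separated groups did not come with a call.

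CD59, the inhibitor of the attack complex, fell. It had 241, 257 and 249 CPM in si-SNHG17 against 394, 393 and 408 CPM in si-NC, or 62.6% of control (log2 fold change -0.68, SE 0.071, adjusted p = 5.54e-06 by edgeR). The groups were separated by over 100 CPM, and the libraries within a group differed by under 20 CPM. CD59 lies on chromosome 11 from 33703010 to 33736491, minus strand. Its exons overlap those of a protein-coding gene model on that strand (AL049629.2), which the count table does not list by that name. Counts per gene do not separate the isoforms of CD46, CD55 or CD59.

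SERPING1, the C1 inhibitor, was close to the detection limit. It had 12, 24 and 13 counts in si-SNHG17 and 4, 4 and 9 in si-NC, or 1.25, 1.92 and 1.48 CPM against 0.455, 0.394 and 0.843 CPM. The log2 fold change was 1.44 with an SE of 0.422 (adjusted p = 0.0151 by edgeR). The call was lost without si-SNHG17 replicate 2 (adjusted p = 0.0760), si-NC replicate 1 (0.0591) or si-NC replicate 2 (0.0735), and with DESeq2 (0.0557), which left 5 genes that rose; over all 14 alternatives the fold change ran from 1.22 to 1.86. For the remaining 8 genes no alternative changed the call or the direction.

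**Figure D2:**
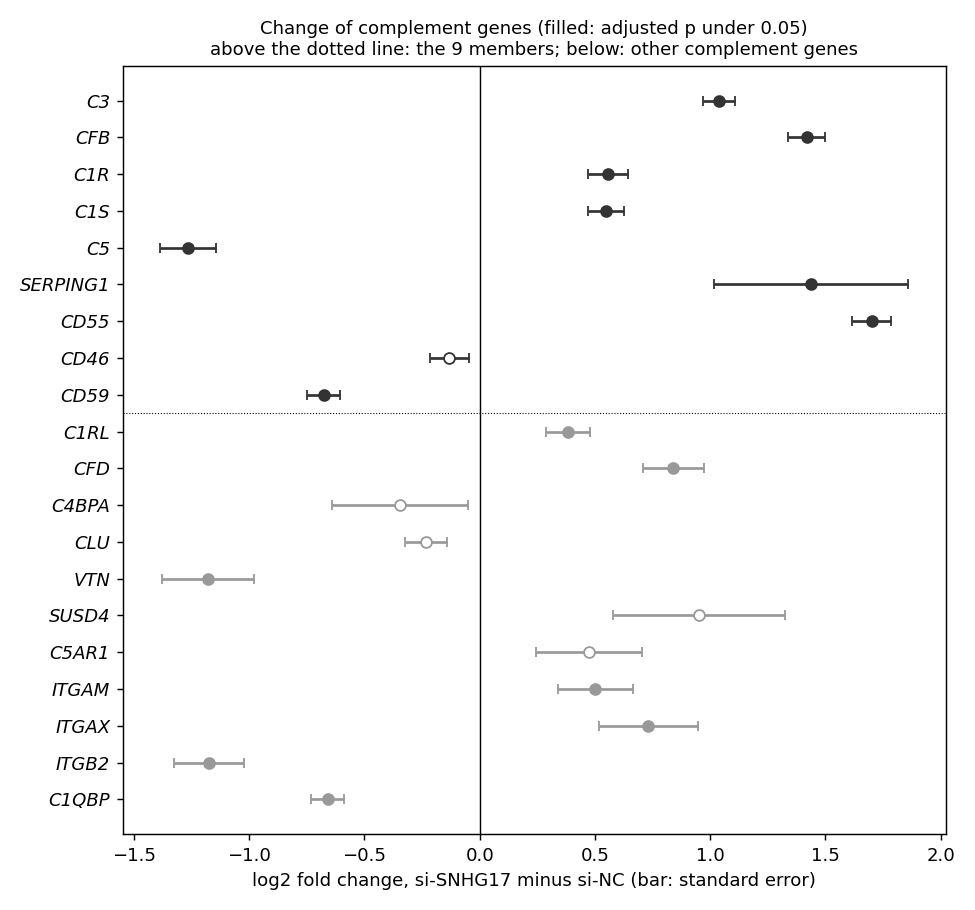
Log2 fold change (si-SNHG17 minus si-NC) with its standard error for the 9 complement genes, above the dotted line, and for 11 of the 12 other complement genes with enough reads; filled points passed an adjusted p of 0.05. CD55 (1.70), SERPING1 (1.44, from few reads, SE 0.422) and CFB (1.42) lie far to the right and C5 (-1.27) far to the left, while CD46 (-0.13) is open.

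Ratios of counts between genes within a library do not depend on library scaling, and 6 of them were compared. The ratio itself depends on the lengths of both genes, its change between groups does not. The ratio of CD55 to CD59 counts was 2.10, 1.85 and 2.17 in si-SNHG17 and 0.433, 0.375 and 0.370 in si-NC, a log2 change of 2.38 between 2 genes whose products share a GPI anchor. The ratio of C3 to C5 counts was 48.0, 51.8 and 46.3 against 9.002, 9.36 and 11.6. The ratio of C3 to CFB fell from 4.88 ± 0.315 to 3.74 ± 0.247 (SD, n = 3), and C3 to C1S went from 3.38 ± 0.115 to 4.75 ± 0.380. CD55 to CD46 went from 2.29 ± 0.160 to 8.19 ± 0.674. In these 5 ratios the groups did not overlap, and the exact two-sided permutation test of log2 ratios gave p = 0.1, the smallest that 3 against 3 libraries allow (0.12 after Benjamini-Hochberg adjustment over the 6). For CD55 to CD59, C3 to C5 and CD55 to CD46, the first gene was higher and the second lower in every si-SNHG17 library than in every control. Their separation and p were thus fixed by the levels of the single genes and add no support. C1R to C1S was 1.05 ± 0.043 in si-SNHG17 and 1.04 ± 0.126 in si-NC (exact p = 0.9), with si-NC replicate 3 the highest library at 1.19.

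**Figure D3:**
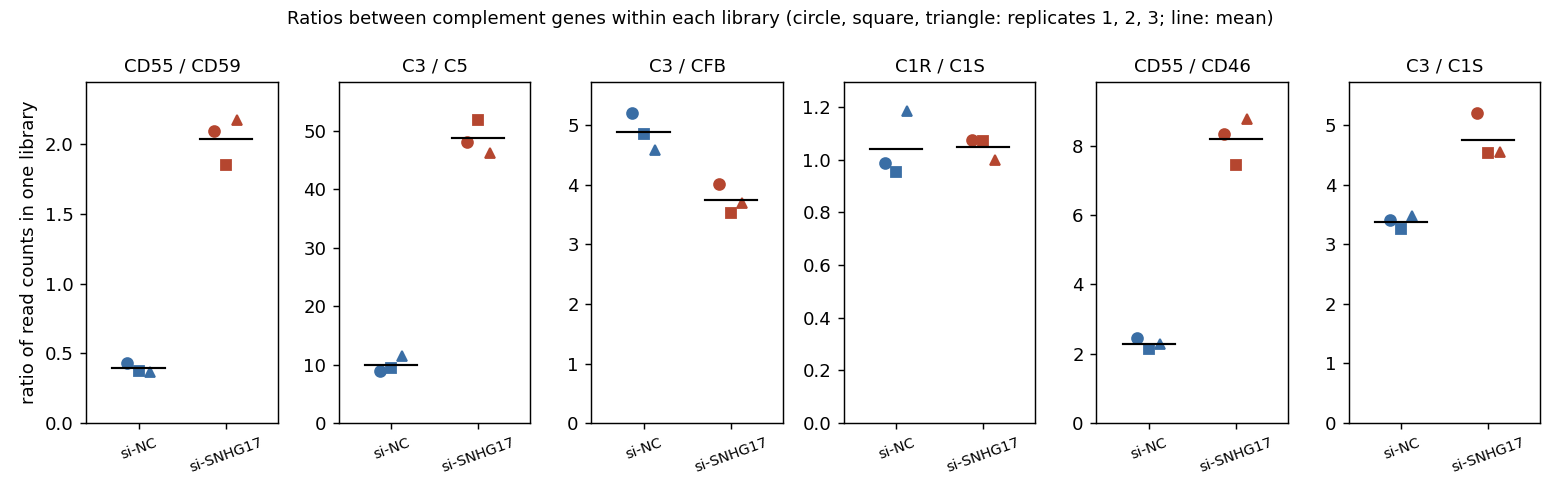
Ratio of read counts of the named genes within each library (linear axes from 0); symbols are replicates 1 to 3 and lines are group means. CD55 to CD59 sits at 0.370 to 0.433 in si-NC and at 1.85 to 2.17 in si-SNHG17, whereas C1R to C1S overlaps.

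Scaled to the merged exon length of each gene (GENCODE 29), C3 was the highest in both groups, with 61.3 ± 1.82 CPM per kilobase in si-NC and 125.7 ± 3.54 in si-SNHG17 (SD, n = 3). In si-NC it was followed by CD59 (38.5 ± 0.822), C1R (26.7 ± 2.82), CD55 (26.5 ± 2.13), C1S (23.4 ± 0.401), CFB (21.0 ± 1.36), C5 (7.92 ± 1.02), CD46 (7.83 ± 0.223) and SERPING1 (0.157 ± 0.067). There the ranges of C1R and CD55 overlapped, as did those of C5 and CD46, so the order within each of these pairs is not beyond the spread. In si-SNHG17 the order was C3, CD55 (86.0 ± 5.59), CFB (56.1 ± 2.26), C1R (39.3 ± 1.55), C1S (34.2 ± 2.05), CD59 (24.1 ± 0.799), CD46 (7.14 ± 0.198), C5 (3.30 ± 0.266) and SERPING1 (0.430 ± 0.094), and no neighbours overlapped. CFB thus moved from the sixth place to the third, and CD59 from the second to the sixth. With the longest coding transcript as the length, a choice made after the data were seen, the si-SNHG17 order was the same, but CD59 was the fourth in si-NC (52.2 ± 1.12 CPM per kilobase). There its range overlapped that of CD55, which overlapped that of C1R, so these places are not beyond the spread. At that length CD46 (20.2 ± 0.576) was above C5 (9.47 ± 1.22) in si-NC, the reverse of the merged-exon order, and their ranges did not overlap.

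**Figure D4:**
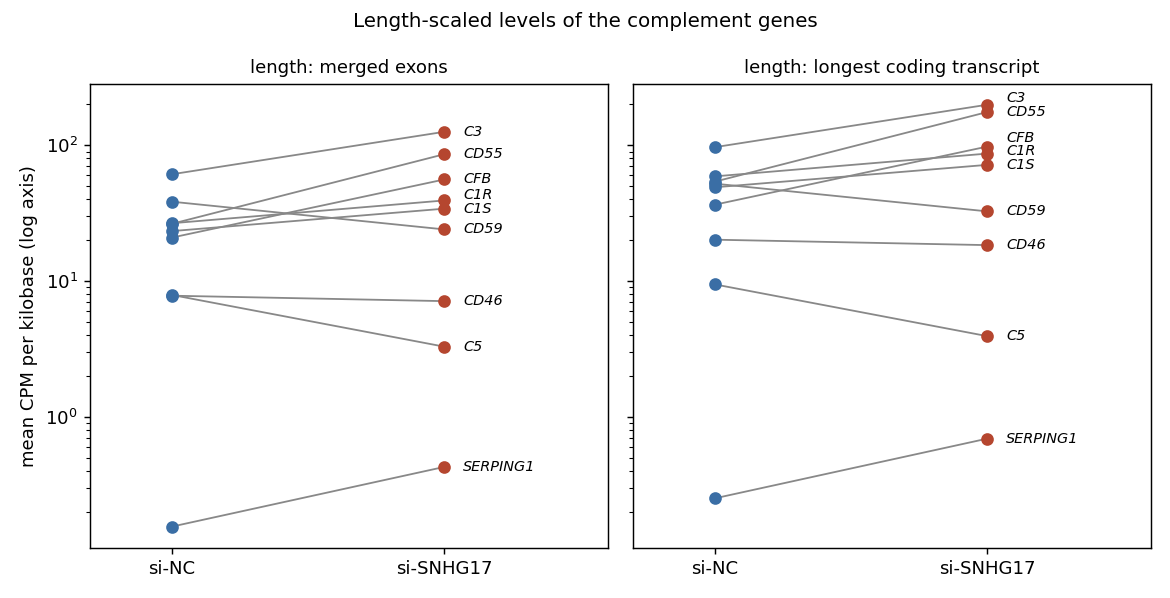
Mean CPM per kilobase (log axis) of the 9 genes in si-NC and si-SNHG17, with lines joining the same gene; the left panel uses merged exons and the right panel the longest coding transcript. The lines of CD55, CFB, C1R and C1S cross that of CD59 in the left panel, where CD59 goes from 38.5 to 24.1 and CD55 from 26.5 to 86.0.

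The rest of the pathway was mostly undetected or at very few reads in this line. Of 50 other complement genes, 19 had no read in any library, among them C1QA, C1QB and C1QC of the recognition unit, MBL2 and MASP1 of the lectin pathway, and C6, C7, C8A and C8B of the attack complex. A count of 0 allows 3 counts, or 0.240 to 0.342 CPM per library, for counting error only. A further 19 had too few reads to be tested, and 12 were tested: 4 rose, 4 fell and 4 did not pass, where 39.1% of all genes were called. Their median log2 fold change was 0.08. C4A had 1 count in each si-SNHG17 library and 5, 8 and 6 in si-NC, and its reads can be shared with the near-identical C4B. CFI, the protease that cleaves C3b with cofactors such as CD46, had 0, 0 and 1 counts against 6, 8 and 4.

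CFD, the protease that activates factor B, rose from 58.7 ± 10.6 to 105 ± 16.2 CPM (log2 fold change 0.84, edgeR adjusted p = 0.000182). C1RL, the C1R-like protease, rose from 76.7 ± 8.64 to 100.1 ± 5.16 CPM (0.38). In contrast VTN, which binds terminal complexes, fell from 15.2 ± 4.04 to 6.69 ± 1.060 CPM (-1.18). CLU, which also binds terminal complexes, was abundant and did not pass, with 1713 ± 12.4 CPM in si-SNHG17 and 2014 ± 284 CPM in si-NC (-0.23, adjusted p = 0.0547). It passed without si-NC replicate 1 (adjusted p = 0.0252), under limma-voom (0.0488) and when no genes were filtered out (0.0211).

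Receptor genes went both ways. C1QBP, a mitochondrial protein that also binds C1q, fell from 292 ± 5.62 to 185 ± 5.35 CPM (log2 fold change -0.66). ITGB2, the shared beta chain of complement receptors 3 and 4, fell from 17.2 ± 1.505 to 7.58 ± 0.771 CPM (-1.17), while their alpha chains ITGAM (6.64 ± 0.515 to 9.40 ± 0.440 CPM, 0.50) and ITGAX (3.39 ± 0.474 to 5.67 ± 0.518 CPM, 0.73) rose. These alpha chain calls were lost without si-NC replicate 2 (edgeR adjusted p = 0.0967 and 0.0588), which left 2 of the 50 genes higher, and each was lost in other alternatives as well. The receptor C5AR1 (0.47, adjusted p = 0.119), SUSD4 (0.95, 0.0564) and the C4b-binding chain C4BPA (-0.35, 0.380) did not pass by edgeR. SUSD4 passed without si-SNHG17 replicate 2 (1.24, edgeR adjusted p = 0.0172) or si-NC replicate 1 (1.23, adjusted p = 0.0413), with no filter (0.0294) and with the replicate block (0.0473).

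Genes of the signals that are known to act on complement genes were examined next, in a list chosen with earlier results of these data known. Of 19 such genes tested, 10 rose, 2 fell and 7 did not pass, where 19.6% of all genes rose and 19.6% fell. Their median log2 fold change was 0.39, against 0.01 over all genes. The interleukin IL1A rose from 5.56 ± 0.817 to 32.5 ± 3.90 CPM (log2 fold change 2.54), and IL1B from 10.2 ± 0.785 to 25.3 ± 1.45 CPM (1.30). CEBPD, a transcription factor of the acute-phase response, rose from 17.9 ± 0.860 to 40.0 ± 3.63 CPM (1.16), and the interferon gamma receptor chain IFNGR1 from 59.0 ± 4.39 to 109.8 ± 7.46 CPM (0.90). Other members were singled out after their values were seen. IL6 rose from 0.577 ± 0.586 to 5.88 ± 0.956 CPM (3.40). It had 11, 2 and 3 counts in si-NC, and its log2 fold change was 4.55 without si-NC replicate 1. IRF1 rose from 70.6 ± 7.14 to 115 ± 12.5 CPM (0.71) and the NF-kB subunit RELA from 104.5 ± 3.33 to 137 ± 2.69 CPM (0.39). STAT3 (0.10, edgeR adjusted p = 0.326) did not pass. IL6R, the receptor chain for IL6, had 0 to 2 counts per library. IL1R1, an interleukin 1 receptor chain, fell (50.9 ± 6.37 to 40.0 ± 1.64 CPM). The IL1R1 call was lost without si-SNHG17 replicate 1 or 3 or si-NC replicate 1 or 2 (adjusted p from 0.0502 to 0.120).

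**Figure D5:**
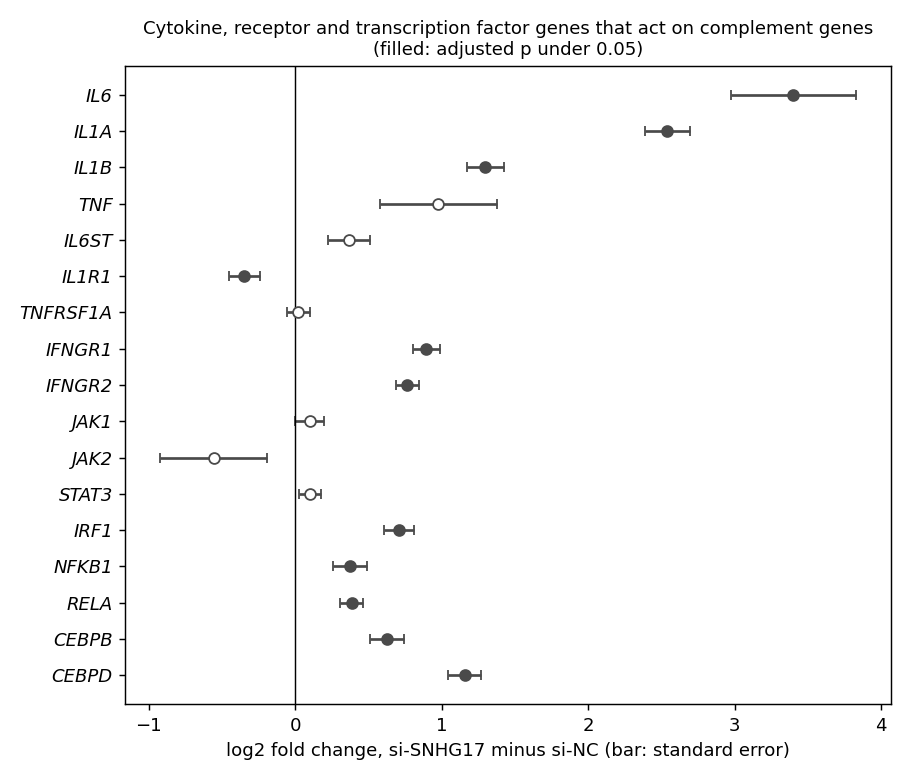
Log2 fold change (si-SNHG17 minus si-NC) with its standard error for 17 of the 19 tested genes of cytokines, receptors and transcription factors known to act on complement genes; filled points passed an adjusted p of 0.05. IL6 (3.40) and IL1A (2.54) lie farthest right. TNFRSF1A, JAK1 and STAT3 have open points close to 0.

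CD55 and CD59 reach the surface on a GPI anchor, so the genes that build and attach it were counted too. Of 28 such genes, all tested, 9 fell, 4 rose and 15 did not pass, or 13 calls of 28, where 39.1% of all genes were called. The median log2 fold change was -0.09. The 4 that rose, named after their values were seen, were PIGA (0.57), PIGH (0.50), PIGZ (0.46) and PGAP2 (0.30). The 4 genes with the smallest p all fell and are given with their levels. PIGS, a subunit of the transamidase that attaches the anchor, fell from 176 ± 5.53 to 113 ± 5.51 CPM (log2 fold change -0.64). PIGU, another transamidase subunit, fell from 66.2 ± 3.01 to 46.5 ± 3.43 CPM (-0.51). Other transamidase subunits were added after their values were seen. PIGK fell (-0.44), and PIGT (0.17, edgeR adjusted p = 0.0969) and GPAA1 (-0.11, edgeR adjusted p = 0.519) did not pass. DPM2, of the dolichol-phosphate mannose synthase, fell from 46.7 ± 4.88 to 24.7 ± 1.77 CPM (-0.92), and the mannosyltransferase subunit PIGX from 27.7 ± 1.47 to 18.3 ± 2.79 CPM (-0.61).

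The profiles most like those of C3 and CD59 were sought among 8723 other protein-coding genes with a mean of at least 10 CPM, by Pearson's r of log2 CPM over the 6 libraries. For C3 they were CYP1B1 (r = 0.9997), ZC3H12A (0.9988) and SMAD3 (0.9988). For CD59 they were CACNG6 (0.9995), FSTL4 (0.9990) and TYMS (0.9990). The 6 libraries form 2 groups, so a gene that separates the groups cleanly reaches a high r: 153 genes exceeded 0.99 for C3 and 162 for CD59, whereas 3 did for CD46.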

How the data were processed

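RNA was measured in 6 libraries of A549 cells. Trizol-extracted total RNA was prepared with an Ion Total RNA-Seq Kit and sequenced single-end on Ion Proton instruments, per the labels' protocols. The submitters' processing notes name GRCh38. The sources used here do not name the aligner, counter, annotation or strand use. What the authors deposited is a table of raw counts for 54261 genes, of which 24851 had no read. Library titles gave the groups and matched the columns.

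Counts were fitted in R 4.3.3 with edgeR 4.0.16 (filterByExpr, TMM, glmQLFit and glmQLFTest, group as the only term), with Benjamini-Hochberg adjustment over 15614 genes and a threshold of 0.05. Positive log2 fold changes mean higher in si-SNHG17; the SE is the fold change divided by the square root of F. The fit was run on simulated counts with the same spread for every gene and few changed genes, as many raised as lowered. These data have far more genes called, so that run does not measure the error of the calls here. Alternatives were DESeq2 size factors, upper quartile scaling, library totals, DESeq2 1.42.0, limma-voom (limma 3.58.1), no filter on low counts, a mean CPM of at least 1, a replicate block and leaving out each library. No 2 libraries held identical values. In chi-square per degree of freedom, si-NC replicate 3 stood 8.85 from si-NC replicate 1 and 8.40 from si-NC replicate 2. Those replicates stood 2.25 apart, and pairs within si-SNHG17 stood 3.04 to 4.87 apart. Without si-NC replicate 3, 6601 genes passed, against 6112 with all libraries.

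The members and lists were chosen with earlier results of these data known. Named were the 9 members, SNHG17, other complement genes past the threshold with at least 5 CPM in a group, up to 4 genes of smallest p in each further list, and the 3 profiles most like each member, of which those of C3 and CD59 are given; exceptions are stated. KRT7 and EPCAM were added after their values were seen. A few genes of the lists are counted but not reported here by name. Gene positions and lengths came from GENCODE 29, promoter windows from RefSeq.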

Additional observations from a re-analysis of the deposited data

How the results depend on the processing

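Of the 9 complement genes, 5 to 6 rose and 2 fell in the 6 fits that each left out a library. Over the same fits 2 to 4 of the other complement genes rose and 4 to 5 fell, 4911 to 6601 of all genes passed (2473 to 3335 higher, 2438 to 3266 lower), and SNHG17 ran from -2.37 to -2.04 on the log2 scale. Without the filter on low counts 7 other complement genes fell, C4A, CFI and CLU in addition. C4A and CFI were not tested in the main fit, because the filter had removed them. CLU was tested in both fits, and the cause of its change was not tested. COL1A1, not past the threshold, changed sign to -0.0491 without si-SNHG17 replicate 2 and to -0.0387 without si-NC replicate 2, and reached 0.188 without si-NC replicate 3; the cause was not tested. Of the values of single named genes over the alternatives, 20 fell short of the threshold they had passed, 7 newly passed it, and 615 kept their side and direction. With the replicate block, 6 complement members rose and 2 fell, 5 and 4 of the other complement genes, and 5579 of all genes passed. Libraries of like number had correlations of deviations of 0.06, -0.11 and -0.09 and none correlated best with its own number, so the numbers were not taken to pair the libraries. Counts of 0 to 24 per library limit SERPING1, C2, C4A and CFI.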

Other observations

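Other acute-phase proteins, which the liver and inflamed epithelia secrete along with C3 and CFB, went both ways. Of 18 such genes, 10 had enough reads to be tested: 4 rose, 3 fell and 3 did not pass, where 19.6% of all genes rose and 19.6% fell. Their median log2 fold change was -0.25. LCN2, which withholds iron from bacteria, rose from 96.7 ± 11.2 to 267 ± 10.4 CPM (log2 fold change 1.47, edgeR adjusted p = 4.24e-08). SAA2, a serum amyloid, rose from 3.73 ± 0.973 to 13.2 ± 1.01 CPM (1.84). The fibrinogen chains fell: FGA from 28.5 ± 1.28 to 9.51 ± 1.81 CPM (-1.60), and FGG from 11.2 ± 0.491 to 1.76 ± 0.296 CPM (-2.67). CRP, HP, A2M and ALB had no read in any library.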
